A study of Mus musculus with 2 samples.

Results

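CRACH sites are positions called as N6-methyladenosine (m6A) whose 5-base motif departs from the canonical DRACH motif in its first base only. In DRACH, D stands for A, G or T, R for A or G and H for A, C or T, and the methylated adenosine is the third base. A CRACH site carries C instead of D at offset -2, the base 2 nt upstream of the adenosine, and meets the motif at every other position. The sites were found by reading the GRCm38 bases around each called position on its strand, and 2781 of the 219409 positions called in the cerebellum, the cerebrum or both fell into this class (1.27%, 95% Wilson interval 1.22 to 1.32). The cerebellum library listed 1060 of them, the cerebrum library 2317, and 596 were in both lists. CRACH sites made up 2.28% of all calls outside DRACH (2.20 to 2.36), and 7.15% of the non-DRACH calls found in both libraries (6.62 to 7.72).

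The data come from GLORI, in which glyoxal and nitrite convert unmethylated adenosine so that it is read as G while m6A is still read as A. Per the labels, Poly(A)+ RNA of the cerebellum and of the cerebrum was used, both from newborn (P0) female F1r tissue, and the study's methods name 1 animal as the source. F1r is the hybrid of a C57BL/6J (C57) mother and a PWK/PhJ (PWK) father, both tissues carry the same genotype, and all RNA was GLORI-treated. There was 1 library per tissue, so neither tissue has a replicate and no test between the tissues was made. Each file lists the positions that passed the authors' filters, without the reads or rates behind them. The sequencing depth at any site is therefore unknown, and a missing site can be unmethylated, unexpressed or thinly covered. The first base of each motif is the C57 reference base. Whether a PWK variant turns some of these motifs into DRACH on the paternal allele was not tested. The tissue labels were set against marker genes by their DRACH sites. Of 10 hindbrain markers, 5 had DRACH sites in the cerebellum library (26 sites, among them En1, En2 and Barhl1) and 1 in the cerebrum library (2 sites). The latter was Gbx2, which went the other way, with 1 site in the cerebellum library. Atoh1, Pax2, Pax8, Hoxa2 and Hoxb2 had none in either. Of 10 forebrain markers, 10 had DRACH sites in the cerebrum library (146 sites) and 3 in the cerebellum library (8 sites).

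m6A is the most common internal modification of mRNA and is written by a nuclear complex built around METTL3 and METTL14, whose RNA contacts favour the DRACH motif. It is read by YTH-domain proteins, which bind the modified base and change the stability, translation or splicing of the transcript. In most tissues m6A gathers in long exons and near the stop codon, and exon junction complexes keep the flanks of exon junctions largely free of it.

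The 6 possible CRACH 5-mers were not equally represented. CAACT gave 1321 sites, CGACT 520, CAACA 495, CAACC 237, CGACA 148 and CGACC 60. The sequences of 3 sites found in both libraries are shown with the 5-mer in capitals, each from the gene, among those of the gene lists, whose site of that 5-mer lay closest to a stop codon, and no site is shown for the other 5-mers. Cbll1 encodes a subunit of the m6A writer complex itself, and its site lies in coding sequence in the last exon, exon 6 of 6 (chr12:31487724-31487752, minus strand, GRCm38), 459 nt before the stop codon. Tenm2 encodes a teneurin, a trans-synaptic adhesion protein, and its site lies in the 3′ UTR in exon 31 of 31 (chr11:36007973-36008001, minus strand), 48 nt after the stop codon. Lhx2 encodes a LIM-homeodomain transcription factor of the developing forebrain, and its site lies in coding sequence in exon 5 of 5 (chr2:38369095-38369123, plus strand), 20 nt before the stop codon. All 3 also carry A at offset -4 and T at offset +4, that is 4 nt before and 4 nt after the methylated adenosine. Over all sites of both libraries, 178 of 596 carried both of these bases (29.9%, 26.3 to 33.7).
Cbll1 CAACA: atgcctccacagCAACAttacgcaccacc
Tenm2 CAACT: gctcagcaggagCAACTgtgacctcctct
Lhx2 CGACT: gcccttcacaaaCGACTcttaccaacctt

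Some called and uncalled adenosines of one 5-mer lay close together, and 39 sites of both libraries on coding transcripts had an uncalled copy of the same 5-mer within 50 nt. For 4 of these pairs, taken first from the gene lists and then by distance to the stop codon, the called and the uncalled copy are shown. Nova2 and Nova1 encode neuronal splicing regulators. The Nova2 pair lies in coding sequence of the last exon (chr7:18958006-18958034 called and chr7:18958027-18958055 uncalled, plus strand), and the Nova1 pair in the 3′ UTR (chr12:46698511-46698539 called and chr12:46698478-46698506 uncalled, minus strand). The C530008M17Rik pair straddles the stop codon, with the called copy in the 3′ UTR (chr5:76870670-76870698, plus strand) and the uncalled copy in coding sequence (chr5:76870641-76870669). The pair of Naa30, which encodes a catalytic subunit of an N-terminal acetyltransferase, lies in the 3′ UTR (chr14:49187714-49187742 called and chr14:49187694-49187722 uncalled, plus strand). The C530008M17Rik copies carry the same bases at -4 and +4, A and T, although only the downstream one was called. Over all 39 pairs, T stood at +4 in 23 called and 5 uncalled copies, and A stood at -4 in 23 called and 9 uncalled copies.
Nova2 called: cggctacaacacCAACTcgctcagcctgg
Nova2 uncalled: cagcctgggcctCAACTcggccgccgcct
Nova1 called: catctggctgagCAACTgaattacaaaag
Nova1 uncalled: ttacttccatctCAACTtcagcccattgg
C530008M17Rik called: ttaagtaaagagCGACTttcacccacgcc
C530008M17Rik uncalled: caaggcctggagCGACTgtccgcagatta
Naa30 called: cccacacggaagCGACTtttgcatgcaat
Naa30 uncalled: gacagcaaggaaCGACTccacccacacgg

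How often a CRACH adenosine was called was measured where the transcript is known to be expressed, covered and methylated, namely 5 to 50 nt from another called DRACH site on the same strand. In the cerebellum 448 of 16172 such CRACH adenosines were called (2.77%, 2.53 to 3.04), where 2.56% of all adenosines in that window were called. In the cerebrum 862 of 26989 were called (3.19%, 2.99 to 3.41), against 3.0% of all adenosines. In both libraries at once 267 of 13282 were called (2.01%, 1.79 to 2.26), against 2.37%. The all-adenosine rates are made up largely of DRACH calls, so the other motif classes are the closer comparison. DRACH adenosines were called at 25.6% in the cerebellum and 28.2% in the cerebrum, 9.25-fold (8.43 to 10.1) and 8.84-fold (8.28 to 9.45) above CRACH. Adenosines that miss the motif at 2 or more positions were called at 0.149% and 0.380%, so CRACH stood 18.5-fold (16.5 to 20.8) and 8.41-fold (7.82 to 9.05) above them. Among calls made in both libraries CRACH stood 53.2-fold above them (43.9 to 64.6). These intervals cover counting error over adenosines only. Over the 19 autosomes taken one by one, the lowest and highest CRACH rates were 1.62% and 4.65% in the cerebellum, and 2.23% and 5.28% for the cerebrum library.

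**Figure D1:**
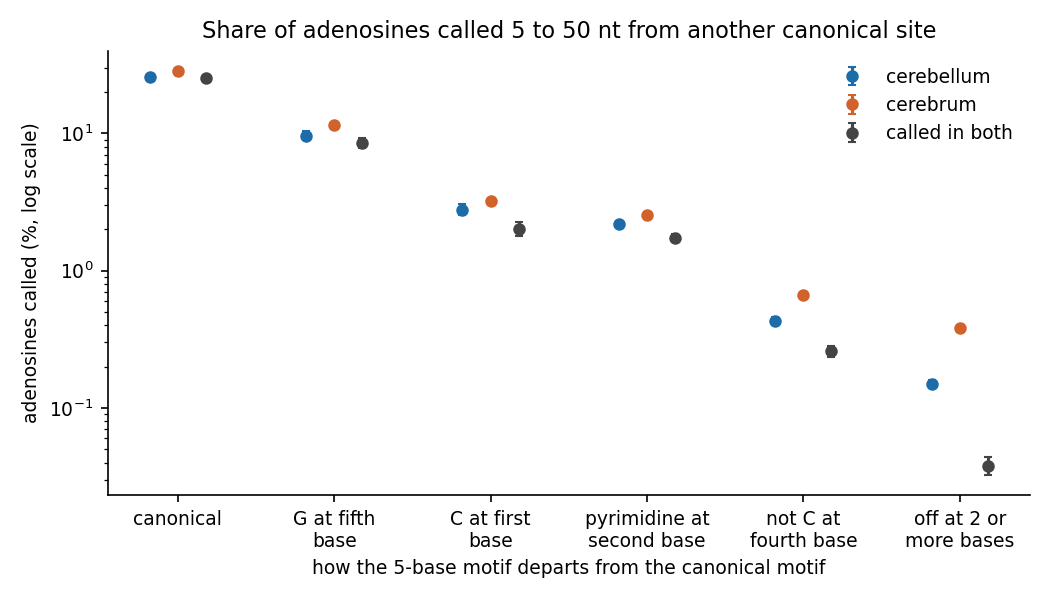
Percent of adenosines called (log scale) 5 to 50 nt from another canonical (DRACH) site, by how the motif departs from DRACH, for the cerebellum library, the cerebrum library and calls made in both; bars are 95% Wilson intervals. CRACH adenosines (C at first base, 2.77% and 3.19%) lie below those with G at the fifth base and far above those that miss the motif at 2 or more bases.

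Compared with the other motifs that miss DRACH at a single position, CRACH lay between DRACG and DYACH in both libraries. Motifs with G at the fifth base (DRACG) were called 3.48-fold (3.09 to 3.92) and 3.602-fold (3.31 to 3.92) more often than CRACH in the cerebellum and the cerebrum. Motifs with a pyrimidine before the adenosine (DYACH) were called less often than CRACH, with ratios of CRACH to DYACH of 1.26 (1.13 to 1.40) and 1.25 (1.17 to 1.35). Motifs without C after the adenosine were called least, and CRACH stood 6.39-fold (5.73 to 7.12) and 4.82-fold (4.47 to 5.20) above them. The interval of each of these ratios leaves out 1.

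With the last 4 bases fixed, C was the least called first base in each of the 6 contexts in both libraries, below T, A and G. In the GACT context in the cerebellum, 11.6% (9.71 to 13.8) of CGACT adenosines were called, against 42.8% of TGACT, 51.0% of AGACT and 56.1% of GGACT. In the AACT context the rates were 6.93% (6.18 to 7.76) for CAACT, 23.3% for TAACT, 34.4% for AAACT and 56.5% for GAACT. The cerebrum gave the same order, with 12.95% for CGACT (11.4 to 14.7) and 7.78% for CAACT (7.15 to 8.45). In the weakest context, AACC, 0.281% of CAACC adenosines were called in the cerebellum (0.157 to 0.503) against 0.901% of TAACC (0.601 to 1.35). CGACC was called at 0.408% in the cerebellum (4 of 980) and 0.376% in the cerebrum (6 of 1594), and 0 of 818 were called in both, which allows a share of up to 0.367%.

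A T after the motif's C, at offset +2, marked the called copies. T stood there in 66.2% of CRACH sites (64.4 to 67.9) and in 24.6% of the 1319 uncalled CRACH adenosines within 50 nt of a site (22.4 to 27.0). Among sites of both libraries the share was 86.7% (83.8 to 89.2), and among sites of a single library 60.6% (58.5 to 62.6). DRACH sites had T there in 58.5%. G before the adenosine was less common in CRACH sites (26.2%) than in DRACH sites (63.4%), and was found in 16.8% of the uncalled CRACH adenosines. The 5-mers are not equally common near DRACH sites, and the cerebellum window held 949 CGACT and 3954 CAACT adenosines.

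Beyond the 5-mer that defined them, CRACH sites carried T at +4 and A at -4 more often than uncalled CRACH adenosines nearby. Both bases stood together in 19.6% of the sites (18.2 to 21.1) and neither in 30.2% (28.5 to 31.9). For the uncalled adenosines these shares were 5.23% and 54.2%. T stood at +4 in 46.9% of CRACH sites (45.0 to 48.8) and in 19.5% of the uncalled ones nearby, a difference of 27.4 percentage points (24.6 to 30.2), or 24.7 points once the uncalled adenosines were weighted to the same mixture of 5-mers. A stood at -4 in 42.5% of the sites (40.7 to 44.4), which was 16.8 points above the weighted uncalled share. C at +4 was the base furthest below the weighted uncalled share, at 20.6% of sites, 22.1 points lower. The uncalled adenosines nearby were rich in C there, at 43.2%. Among the sites themselves G was the rarest base at +4, at 12.1%, against 16.2% of uncalled adenosines. Sites of both libraries carried T at +4 in 58.9% (54.9 to 62.8) and A at -4 in 52.9% (48.8 to 56.8). T at +4 and A at -4 were also more common at DRACH sites than at uncalled DRACH adenosines within 50 nt of one. The differences were 18.3 points for T at +4 and 14.1 points for A at -4 after weighting, so neither base is particular to CRACH. For C and G at +4, the weighted differences at DRACH sites were -5.37 and -8.99 points.

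Both bases were then combined in the 5 to 50 nt window, at offsets picked from these same CRACH sites after their values were seen. CRACH adenosines with A at -4 and T at +4 were called at 10.2% in the cerebellum (125 of 1230, 8.60 to 11.98) and 10.8% in the cerebrum (214 of 1987, 9.48 to 12.2). Those with A at -4 only reached 3.04% and 3.50%, and those with T at +4 only 4.44% and 5.24%. With neither base 0.977% were called in the cerebellum (82 of 8390, 0.788 to 1.21) and 1.28% in the cerebrum (181 of 14097, 1.11 to 1.48). The ratio of both bases to neither was 10.4 (7.92 to 13.7) in the cerebellum and 8.39 (6.92 to 10.2) in the cerebrum, and 9.95 and 7.88 with the 5-mer mixture held equal. For DRACH adenosines the same ratio was 2.49 (2.40 to 2.57) and 2.35 (2.30 to 2.41). DRACH adenosines with neither base were already called at 18.1% and 20.5%, which bounds their ratio from above, so no conclusion is drawn from the ratios of the classes. The same bound limits the rate of DRACH over CRACH by flank, which is given as a description only. It was 18.5-fold (14.9 to 23.0) with neither base and 4.43-fold (3.74 to 5.24) with both in the cerebellum. For the cerebrum library these ratios were 15.98 (13.8 to 18.5) and 4.48 (3.94 to 5.09).

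**Figure D2:**
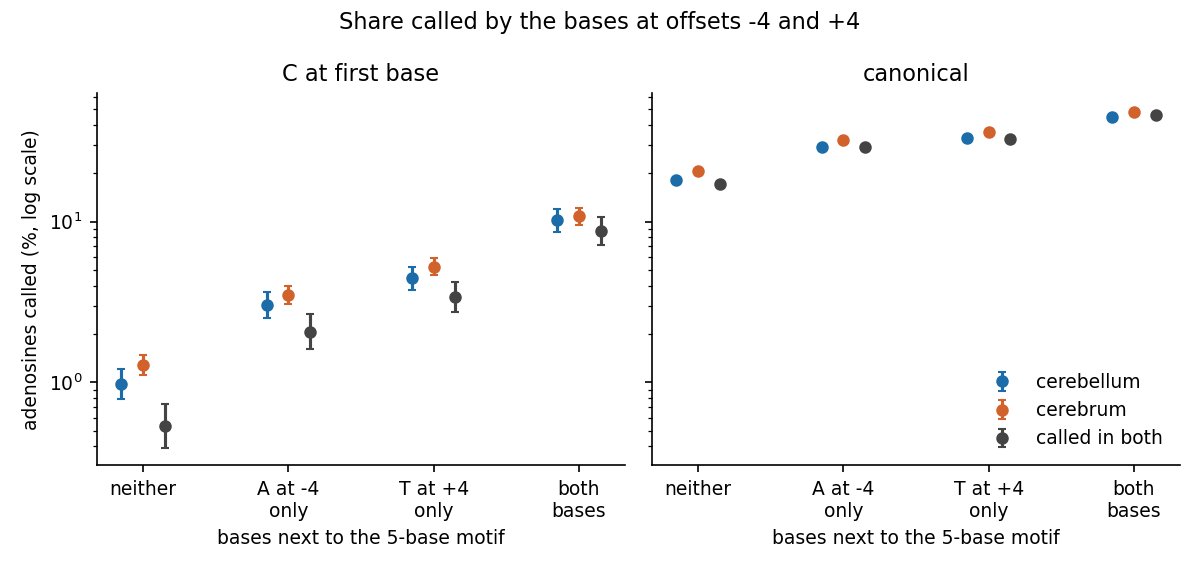
Percent of adenosines called (log scale) 5 to 50 nt from another canonical site, by the bases at offsets -4 and +4, for motifs with C at the first base (left) and canonical motifs (right), in each library and for calls made in both; bars are 95% Wilson intervals. With C at the first base the cerebellum rate goes from 0.977% with neither base to 10.2% with both, and with canonical motifs from 18.1% to 45.0%.

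Within single 5-mers the call rate also differed with the flanking bases. CGACT with A at -4 and T at +4 was called in 25 of 59 places in the cerebellum (42.4%, 30.6 to 55.1) and 38 of 115 in the cerebrum (33.0%, 25.1 to 42.1), against 4.67% and 6.89% with neither. DRACH adenosines with both bases, pooled over all DRACH 5-mers, were called at 45.0% in the cerebellum, inside the CGACT interval, and at 48.3% in the cerebrum, above it. The pooled rate is not matched to CGACT in its last 4 bases. DRACH 5-mers that share those bases were called at 42.8% to 56.1% in the cerebellum over all flanks, against 25.6% for DRACH as a whole. Whether CGACT with both bases reaches the rate of these 5-mers with both bases was not tested. CAACT with both bases was called at 23.1% (18.9 to 27.9) and 24.0% (20.5 to 27.8), against 2.54% and 3.15% with neither. CAACA reached 3.85% (2.42 to 6.07) and 4.67% (3.32 to 6.51) with both bases, and 0.184% and 0.153% with neither. Counts were too few for an order among the flanks of CGACC, with 4 calls in the cerebellum and 6 in the cerebrum.

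Sharing depends on the length of each list, and the cerebrum list is the longer. Of the cerebellum CRACH sites, 56.2% were also in the cerebrum list (596 of 1060, 53.2 to 59.2), and of the cerebrum CRACH sites 25.7% were also in the cerebellum list (24.0 to 27.5). DRACH sites were shared at 81.0% and 45.3%, DRACG sites at 73.2% and 33.5%, DYACH sites at 48.5% and 18.4%, and sites off at 2 or more positions at 19.2% and 5.16%. Where coverage of both libraries is known, 5 to 50 nt from a DRACH site called in both, 65.0% of cerebellum CRACH sites were in the cerebrum list (60.2 to 69.4) and 47.2% of cerebrum CRACH sites in the cerebellum list (43.1 to 51.3). There, DRACH sites were shared at 89.0% and 68.2%, so CRACH lay below DRACH there too. DYACH sites were shared there at 69.65% (67.2 to 72.0) and 49.69% (47.5 to 51.9), with intervals that overlap those of CRACH. The order of CRACH above DYACH seen over all sites was therefore not kept there. In the same places a CRACH adenosine not called in the cerebellum was called in the cerebrum in 2.32% of cases (299 of 12871), and one not called in the cerebrum was called in the cerebellum in 1.13% (144 of 12716).

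Sharing varied with the 5-mer and the region. CGACT sites of the cerebellum were shared at 69.7% (63.8 to 75.1) and CAACT sites at 60.8%, while CAACA sites were shared at 28.6%. On coding transcripts, sites ending in T were shared at 68.0% (64.5 to 71.4) and the others at 37.7% (30.2 to 45.8). In coding sequence 64.1% of cerebellum CRACH sites were in the cerebrum list (59.6 to 68.4) and in 3′ UTRs 61.2% (56.1 to 66.03). In introns 11 of 119 were (9.24%, 5.24 to 15.8), against 39.3% of intronic DRACH sites (37.1 to 41.4) and 7.63% of intronic sites off at 2 or more positions (7.05 to 8.26).

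**Figure D3:**
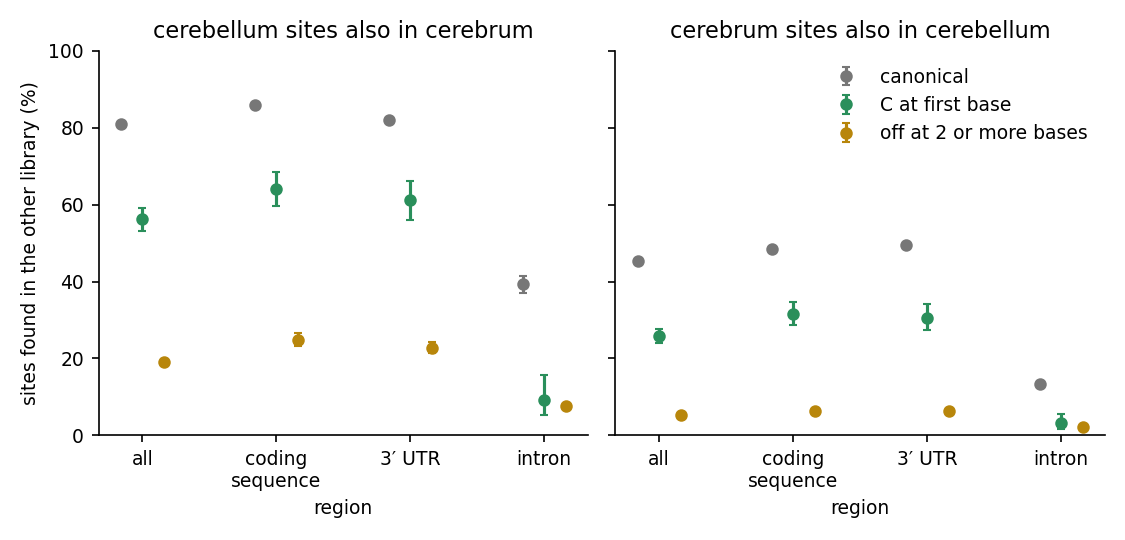
Percent of sites of one library also listed in the other, for all regions, coding sequence, 3′ UTRs and introns, for canonical sites, sites with C at the first base and sites off at 2 or more bases; bars are 95% Wilson intervals. CRACH sites lie between the other classes in exons (64.1% in coding sequence and 61.2% in 3′ UTRs from cerebellum to cerebrum) and near the lowest class in introns (9.24%).

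By region, 1085 CRACH sites lay in coding sequence (39.0%, 37.2 to 40.8), 867 in 3′ UTRs (31.2%, 29.5 to 32.9), 464 in introns (16.7%, 15.4 to 18.1) and 63 in 5′ UTRs (2.27%). A further 131 lay in other exons of coding genes, 82 in exons of noncoding genes, 25 antisense to a gene and 64 outside annotated genes. Of the 596 sites of both libraries 48.8% lay in coding sequence, 37.3% in 3′ UTRs and 1.85% in introns. Relative to uncalled CRACH adenosines within 50 nt, the 3′ UTR share was 1.40-fold higher (1.25 to 1.57) and the coding-sequence share lower, at a ratio of 0.831 (0.772 to 0.895). Against uncalled adenosines within 50 nt of any called site, coding sequence came out higher instead (1.25, 1.20 to 1.32). Among sites on coding transcripts only, 43.0% of CRACH sites (40.9 to 45.2) and 31.3% of uncalled adenosines (28.4 to 34.3) lay in 3′ UTRs. Relative to DRACH sites, CRACH sites were fewer in 3′ UTRs (0.655-fold, 0.620 to 0.692) and more frequent in introns (2.34-fold, 2.14 to 2.55), with 1.87 CRACH sites per 100 DRACH sites in 3′ UTRs, 3.23 in coding sequence and 6.67 in introns. Among sites of both libraries the intronic share was 1.85% for CRACH (1.03 to 3.27) and 1.93% for DRACH (1.80 to 2.07). The intronic excess was therefore not seen among sites of both libraries.

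The intronic sites differed from the rest in their bases as well. T stood at +2 in 39.7% of them (35.3 to 44.2), and G before the adenosine in 11.2% (8.65 to 14.4). A at -4 was found in 30.0% of intronic sites (25.97 to 34.3) and in 40.7% of the uncalled intronic CRACH adenosines nearby (34.6 to 47.1), the reverse of the order over all sites. T at +4 kept the overall order in introns, at 33.6% of sites (29.5 to 38.04) and 23.7% of uncalled adenosines (18.8 to 29.6). Weighted to the same 5-mers, these differences were -5.67 points for A at -4 and 9.3 points for T at +4. T was more frequent at intronic sites at every offset from -10 to +10 outside the 5-mer, by 16 weighted points at -5 and 14.95 at +7. A was less frequent at most of these offsets, so neither difference was particular to -4 or +4. Within 5 to 50 nt of a DRACH site, intronic CRACH adenosines were called at 1.13% in the cerebellum (9 of 798) and 0.694% in the cerebrum (16 of 2304). In coding sequence the rates were 2.98% and 3.75%, and in 3′ UTRs 2.89% and 3.56%. A DRACH site lay within 50 nt of 6.03% of intronic CRACH sites (4.21 to 8.58) and of 11.8% of intronic DRACH sites (11.04 to 12.6). Repeat-masked sequence held 17.2% of intronic CRACH sites (14.1 to 20.9) and 14.6% of intronic DRACH sites (13.8 to 15.5), with overlapping intervals.

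Along coding transcripts CRACH sites were concentrated near the stop codon. On the transcripts that carry a CRACH site, 21.2% of the sites (428 of 2015, 19.5 to 23.1) lay within 200 nt of the stop codon, compared with 8.16% of all CRACH adenosines of those transcripts, a ratio of 2.60 (2.38 to 2.85). The ratio for DRACH sites of the same transcripts was 2.03 (1.97 to 2.10), and that of sites off at 2 or more positions 1.01 (0.922 to 1.11). In bins of 100 nt, 20.5% of CRACH adenosines were called at 100 to 200 nt after the stop codon (119 of 581, 17.4 to 24.0) and 18.2% at 0 to 100 nt (15.3 to 21.5). The share was 6.26% at 300 to 400 nt before it (4.79 to 8.13) and 4.22% at 900 to 1000 nt after it (2.53 to 6.95). DRACH adenosines reached 38.4% at 100 to 200 nt after the stop codon (36.7 to 40.1). Since these transcripts were taken because they carry a CRACH site, the rates here lie above those over all transcripts and only their course along the transcript is compared.

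**Figure D4:**
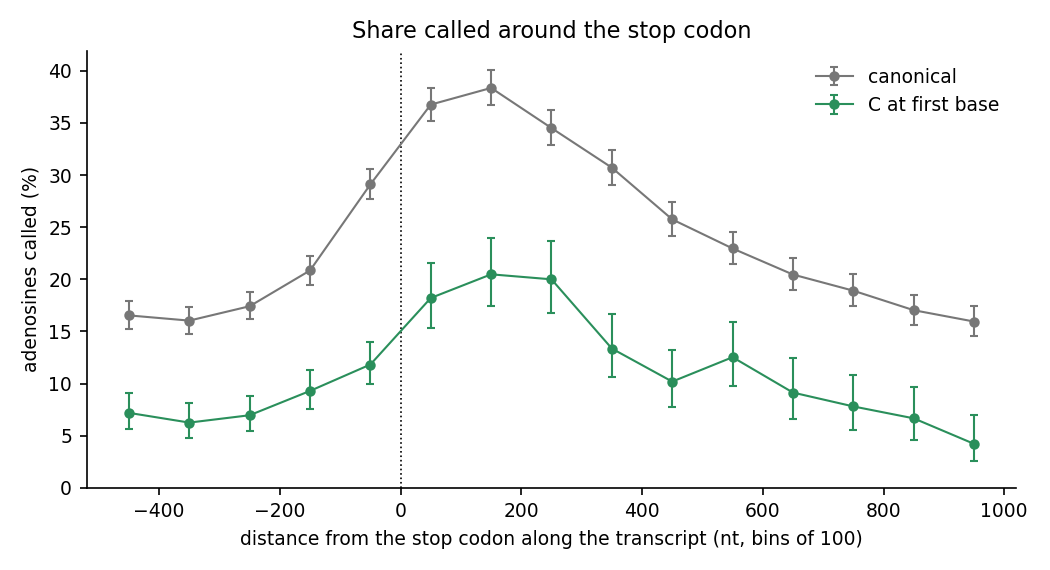
Percent of adenosines called in either library by distance from the stop codon (bins of 100 nt, negative values upstream), on coding transcripts with a CRACH site, for canonical motifs and motifs with C at the first base; bars are 95% Wilson intervals. Both classes are highest 100 to 200 nt downstream, at 38.4% and 20.5%, where the CRACH interval overlaps those of the bins on either side.

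Near exon junctions CRACH sites were scarce. Of the sites on coding transcripts 21.8% lay within 200 nt of a junction (20.04 to 23.6), compared with 44.7% of CRACH adenosines, a ratio of 0.487 (0.448 to 0.530). For sites of both libraries the ratio within 100 nt was 0.152 (0.108 to 0.216), against 0.317 for all sites (0.281 to 0.358), both relative to the CRACH adenosines of all transcripts with a CRACH site. The share called was 1.38% in the first 25 nt from a junction (63 of 4558, 1.08 to 1.76), 2.16% at 50 to 100 nt, 10.5% at 150 to 200 nt and 12.7% at 200 to 300 nt (11.3 to 14.3). DRACH adenosines of these transcripts were called at 1.44% in the first 25 nt (1.28 to 1.61) and 34.9% at 200 to 300 nt (33.8 to 36.02), and the levels of the classes were not compared, since the transcripts were chosen for a CRACH site. In coding sequence, 83.7% of CRACH sites lay in exons over 400 nt (81.4 to 85.8), compared with 48.1% of the CRACH adenosines. DRACH sites lay in such exons in 94.0% (93.6 to 94.4). When the 5-mer was read from the spliced transcript instead of the genome, 0 of 2014 sites tested had another 5-mer.

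**Figure D5:**
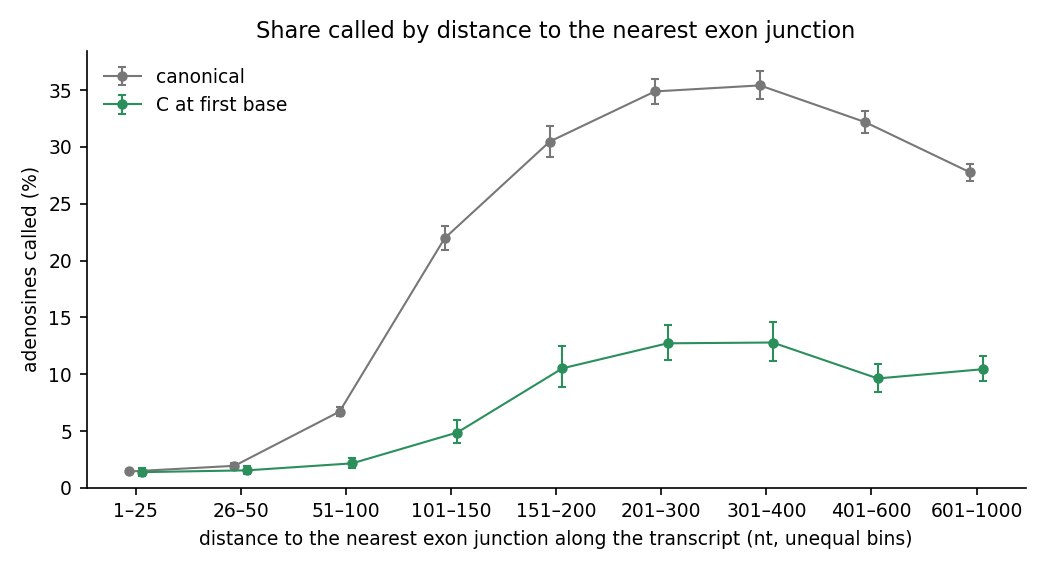
Percent of adenosines called in either library by distance to the nearest exon junction (unequal bins), on coding transcripts with a CRACH site, for canonical motifs and motifs with C at the first base; bars are 95% Wilson intervals. From the first 25 nt to 200 to 300 nt the CRACH share goes from 1.38% to 12.7% and the canonical share from 1.44% to 34.9%, on transcripts chosen for a CRACH site.

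CRACH sites clustered with DRACH sites, with distances counted on the genome, so introns in between add to them. On transcripts with a CRACH site, 44.7% of CRACH adenosines and 21.8% of the sites lay within 200 nt of an exon junction. How far introns lengthened the distances of the uncalled adenosines was not tested. On coding transcripts the median distance to the nearest DRACH site was 47 nt for CRACH sites and 375 nt for uncalled CRACH adenosines of the same transcripts, and 51.6% of the sites (49.4 to 53.8) against 22.0% of the uncalled (21.6 to 22.4) had one within 50 nt. Among sites of both libraries the median was 31 nt. DRACH sites of these transcripts had another DRACH site at a median of 42 nt. On these transcripts, chosen because they carry a CRACH site, CRACH adenosines with a DRACH site 5 to 50 nt away were called in either library at 11.3% (10.7 to 12.02), and those with none within 100 nt at 2.52% (2.33 to 2.72). A DRACH site lay 3 nt upstream of 71 of the 2781 sites, sharing bases with it. On the same transcripts 21.3% of CRACH adenosines with a called DRACH site at that distance were called (63 of 296, 17.0 to 26.3), against 5.98% (5.19 to 6.87) where the upstream motif was DRACH but not called. Some other distances within 15 nt gave rates whose intervals overlap this one, among them 20.7% for a DRACH site 10 nt upstream (30 of 145) and 18.5% for one 13 nt upstream (22 of 119). A call at the A before the site was listed for 2.78% of the CAACH sites (57 of 2053, 2.15 to 3.58), and 93 of the sites lay within 50 nt of another CRACH site.

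The predicted pairing of the adenosine was compared between called and uncalled copies. The probability that the adenosine was unpaired, computed with ViennaRNA by folding it together with 50 nt on either side, averaged 0.673 ± 0.340 (SD, n = 2781) at the sites and 0.744 ± 0.316 (SD, n = 1319) at uncalled adenosines, lower by 0.0705 (0.0492 to 0.0917) at the sites. Weighted to the same 5-mers the gap shrank to 0.0432. Within CGACT the sites averaged 0.550 and uncalled adenosines 0.584, a difference of -0.0334 with an interval that includes 0 (-0.127 to 0.0602). Within CAACT they averaged 0.704 and 0.749, a difference of -0.0447 (-0.0866 to -0.00289), and with 100 nt folded on either side the difference was -0.0345 with an interval that includes 0 (-0.0759 to 0.00686). GC content within 50 nt on either side was 46.4 ± 9.49% (SD) at the sites and 47.6 ± 9.41% (SD) at uncalled adenosines. In coding sequence the methylated base was the second of its codon in 53.6% of CRACH sites (50.6 to 56.5) and in 54.6% of uncalled adenosines (50.7 to 58.5), with overlapping intervals.

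On complete coding transcripts the sites fell in 1564 genes. Of these, 1248 had 1 site and 316 had 2 or more, and 58 genes had no DRACH site. The share of genes with a CRACH site rose with the number of DRACH sites, from 2.44% of genes with 1 DRACH site (1.81 to 3.28) to 20.2% of those with 8 to 15 and 64.1% of those with 32 or more (59.2 to 68.8). The 12 genes with the most CRACH sites held 66, of which 40 were in the cerebellum list, 58 in the cerebrum list and 32 in both. In coding sequence lay 52 of the 66, in 3′ UTRs 11 and in 5′ UTRs 3, and 48 ended in T. Their nearest DRACH site lay at a median of 25.5 nt on the genome.

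Flrt2, a leucine-rich-repeat adhesion protein that guides migrating neurons, held the most, 8 sites. All 8 lie in coding sequence in the second of its 2 exons on chr12, plus strand, beside 42 DRACH sites, and they are shown from 5′ to 3′ with their distance to the stop codon. The first one spans chr12:95779787-95779815 and the last chr12:95780806-95780834 (GRCm38). The 5 sites of both libraries all end in T, while 2 of the 3 found in the cerebrum only end in A.
Flrt2 both, 1071 nt before the stop codon: tccaacctgaaaCAACTcactgcgcggaa
Flrt2 both, 893 nt before the stop codon: cttgtcccaccaCGACTcctggcctacct
Flrt2 both, 842 nt before the stop codon: ccgtttctccaaCAACTcagtctcctact
Flrt2 both, 705 nt before the stop codon: tctgaaaggatcCAACTttccatccactt
Flrt2 cerebrum only, 412 nt before the stop codon: gaacaacggcagCAACActgcttctagcc
Flrt2 both, 386 nt before the stop codon: gccatgagcagaCGACTtcccacagtatg
Flrt2 cerebrum only, 193 nt before the stop codon: taccaaaaaagaCAACTccatcttggaga
Flrt2 cerebrum only, 52 nt before the stop codon: ccacatccccaaCAACAtgagatactgca

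The other genes with many sites include large adhesion and matrix proteins, receptors and nuclear regulators. Vcan, the matrix proteoglycan versican, had 7 sites, all in coding sequence and all in the cerebrum list, of which 1 was also in the cerebellum list. Fat4, a giant atypical cadherin, had 6, with 3 in the cerebellum list, 5 in the cerebrum list and 2 in both. Rfx7, a winged-helix transcription factor, had 5, all in both libraries and all in coding sequence of its last exon. Grm5, the metabotropic glutamate receptor 5, had 5 in the cerebellum list and 4 of them in the cerebrum list. Tsc22d1, a leucine-zipper regulator of transcription, had 3 in the cerebellum list and 2 in the cerebrum list with none shared, while Snx18, a sorting nexin, had 5 in the cerebrum list and 1 in both. Lrfn5 and Nrxn3, which encode synaptic adhesion proteins, had 5 each, of which 3 and 2 were in both libraries. D630045J12Rik, Msl2, a subunit of a histone acetyltransferase complex, and Tanc2, a postsynaptic scaffold, also had 5 each, and each had 3 in both libraries.

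Gene lists were set beside all coding genes. Over all coding genes with a DRACH site, 1506 of 9685 carried a CRACH site (15.6%, 14.8 to 16.3). All coding genes together held 2.45 CRACH sites per 100 DRACH sites, counting the CRACH sites of the 58 genes without a DRACH site. Of the 33 synaptic adhesion and scaffold genes with a DRACH site, 19 carried a CRACH site (57.6%, 40.8 to 72.8), 36 sites in all, led by Nrxn3 with 5, Tenm4 with 4 and Tenm2, Nlgn1 and Lrrtm2 with 3 each, and this was 3.93 per 100 DRACH sites. Channels and receptors carried them in 14 of 32 genes, at 3.93 per 100 DRACH sites, with 5 sites in Grm5 and 3 each in Grin2b, Grm7 and Kcnma1. Chromatin regulators carried them in 18 of 35 genes, led by the histone methyltransferase gene Kmt2d with 4, at 2.14 per 100 DRACH sites. Neurodevelopmental transcription factors carried them in 16 of 49 genes at 2.14 per 100, led by Pou3f3 with 3, all in the cerebrum list. RNA-binding proteins carried them in 11 of 35 genes, with Nova2 at 3 and Nova1 at 2, at 2.77 per 100. Axon guidance genes carried them in 9 of 30 at 1.62 per 100, and neuronal cytoskeleton and motor genes in 5 of 25 at 0.848 per 100, the lowest of these lists, with 1 site each in Map1a, Map2, Map6, Macf1 and Ank2. Of the m6A writers, readers and erasers 4 of 16 carried them, at 1.82 per 100 DRACH sites. These were Cbll1 with 2 sites in both libraries, Rbm15b, a writer subunit, with 1 in both, and the readers Ythdf1 and Ythdf3 with 1 each, in the cerebellum only. The lists were described by counts only, and their genes differ in length and expression, which was not adjusted for.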

How the data were processed

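GLORI calls from 1 cerebellum and 1 cerebrum library were analysed. Per the study's methods, the authors ran GLORI-tools against mm10 and against PWK-mm10, which carries the PWK base at each SNP, merged the calls and applied minimums of 0.1 for the rate and 8 for the reads at a site. Deamination was run warmer than in the published protocol. The deposited files give genomic positions and strands as their only unit (0 methylation rates), so depth is unknown and rates could not be compared.

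Motifs were taken from the GRCm38 sequence (mm10), and 510 positions without A there were left out of every motif class. Regions come from GENCODE M21, not the release the study names: the longest complete coding isoform that covers a site, then other exons, introns and the antisense strand. Uncalled CRACH adenosines lie within 50 nt of a CRACH site. Shares have 95% Wilson intervals and ratios log-normal ones, both for counting error over adenosines, which share transcripts and are not independent. Pairing was computed with ViennaRNA 2.7.2, other steps with Python 3.11.15, numpy 2.4.6 and pandas 2.3.3. Class, distance and interval code was tested on simulated data.

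Members and gene lists were chosen with earlier results of these data known. Named genes are the 12 with the most CRACH sites and up to 5 per list. The first printed sequences are, per 5-mer and among genes of the lists only, the site of both libraries closest to a stop codon, while the 4 pairs, the Flrt2 set and the combined flanks at -4 and +4 were chosen after the values were seen.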

Additional observations from a re-analysis of the deposited data

How the results depend on the processing

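No result has a replicate check, since each tissue has 1 library, and no library was left out. No paired analysis was possible because there is a single pair of libraries, 1 per tissue. Over 50 alternative values, 28 moved by less than their counting error, 21 moved further and 1 reversed. The reversal was the coding-sequence share against uncalled adenosines within 50 nt of any site (1.25), where the 3′ UTR ratio was 1.24. With calls in both libraries, counted once per tissue among the 21, DRACH over CRACH was 12.5 and CRACH over adenosines off at 2 or more positions 53.2. With any site outside CRACH as the neighbour, the latter came to 4.97 (cerebellum) and 3.57 (cerebrum), and DRACH over CRACH 7.79 in the cerebrum. Over all exonic adenosines of transcripts with a DRACH site, CRACH over the same class came to 5.795 (cerebellum) and 3.19 (cerebrum), and DRACH over CRACH 10.4 in the cerebellum. Within 50 nt of a DRACH site of both libraries, 65.2% of cerebellum and 46.95% of cerebrum CRACH sites were shared. With introns left out the shares were 62.2% and 29.8%. The stop codon ratio was 2.30 within 400 nt and the junction ratio 0.317 within 100 nt. Within 200 nt, the ratios for sites of both libraries were 2.955 and 0.3915 against the adenosines of transcripts with such a site, which changes the background too, and 2.78 and 0.351 against the adenosines of all transcripts with a CRACH site. T at +4 exceeded uncalled adenosines by 39.4 percentage points among sites of both libraries. The difference in unpaired probability weighted to the 5-mers was -0.0432. In each case the cause was not tested. Restricting to basic or principal isoforms selected the same isoforms and so tested nothing, although its values are among the 28. Weighting to the 5-mers and leaving out introns were added after seeing the data. Depth limits every count, because a site missing from a list may not have been covered.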
